A study of Mus musculus with 8 samples.

Results

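Transcripts of 10 genes of the circadian clock and of the glucocorticoid response were measured in 8 mouse ears inflamed by allergic contact dermatitis. The genes were taken by symbol from a table of 19126 genes, and all 10 passed the filter on low counts that left 15096 genes for testing. They are the clock repressors Per1, Per2, Per3, Nr1d1 and Nr1d2, the clock output factors Dbp and Tef, and the glucocorticoid-induced genes Fkbp5, Tsc22d3 and Sgk1. In the inhibitor group, 4 mice received the compound MMP-9-IN-1, which blocks matrix metalloproteinase 9, a secreted protease, at 10 mg/kg into the peritoneum. In the vehicle group, 4 mice received an equal volume of the solvent, which was 10% DMSO, 40% PEG300 and 50% PBS. All 8 were healthy C57BL/6 mice of 6 to 8 weeks, an inbred strain, and every mouse was sensitised on the first day with 25 µL of 0.3% dinitrofluorobenzene (DNFB), a contact allergen. From day 6 the left ear of every mouse received 10 µL of 0.25% DNFB, and the ears were taken after 4 days of this treatment. The comparison asks how inhibiting the protease alters gene expression in the inflamed ear, and no ear free of DNFB is part of it. The mice were kept under a normal alternation of day and night, but the hour at which an ear was taken is not given in the labels.

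The clock of mammalian cells is a feedback loop. The activators Arntl (BMAL1) and Clock bind E-boxes, short DNA elements near their target genes, and drive the Per and Cry repressors, the nuclear receptors Nr1d1 and Nr1d2 (REV-ERB alpha and beta) and the output factors Dbp and Tef, which in turn act on D-boxes. The levels of many of these transcripts therefore depend on the hour of day in skin as in other tissues. Glucocorticoids, steroid hormones of the adrenal gland that restrain inflammation, act through the receptor Nr3c1 on glucocorticoid response elements (GRE). Fkbp5, Tsc22d3, Sgk1 and Per1 are known targets of that receptor, so the clock and the hormone meet on some of the same genes.

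Promoter windows are shown for 5 of the genes because they hold such elements: Per3, Tef and Fkbp5, which were highest in ears of mouse 3 or 4, and Per1 and Sgk1, whose highest ears were vehicle mice 2 and 1. Of the 10 genes, 9 had an entry among the RefSeq windows of build GRCm38.p6, which run from 250 bases before to 50 bases after an annotated start, 300 bases in all. Capitals mark matches on either strand to the E-box CACGTG, the D-box TTANGTAA, the RRE core AGGTCA, which is bound by Nr1d1 and its relatives, the CRE TGACGTCA, which is bound by the cAMP-responsive factor CREB, and the GRE, in which GNACA and TGTNC stand 3 bases apart. No capitals of different motifs overlap in the windows shown. The windows are chr4:151044616-151044915 (minus strand) for Per3, chr15:81811164-81811463 (plus strand) for a start of Tef, chr17:28486100-28486399 (minus strand) for Fkbp5, chr11:69098699-69098998 (plus strand) for a start of Per1 and chr10:21993640-21993939 (plus strand) for a start of Sgk1.
Per3: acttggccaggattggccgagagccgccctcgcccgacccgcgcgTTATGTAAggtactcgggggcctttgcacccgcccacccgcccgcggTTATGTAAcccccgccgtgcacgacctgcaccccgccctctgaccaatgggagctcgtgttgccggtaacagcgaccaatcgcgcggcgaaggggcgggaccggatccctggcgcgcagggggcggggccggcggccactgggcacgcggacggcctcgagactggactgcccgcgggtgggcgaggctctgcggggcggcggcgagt
Tef: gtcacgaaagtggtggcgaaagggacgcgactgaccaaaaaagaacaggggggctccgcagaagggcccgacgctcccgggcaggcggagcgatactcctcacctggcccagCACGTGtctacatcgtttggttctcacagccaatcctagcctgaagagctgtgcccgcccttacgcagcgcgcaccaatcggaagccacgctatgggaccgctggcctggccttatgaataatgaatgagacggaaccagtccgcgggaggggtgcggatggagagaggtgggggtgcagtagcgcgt
Fkbp5: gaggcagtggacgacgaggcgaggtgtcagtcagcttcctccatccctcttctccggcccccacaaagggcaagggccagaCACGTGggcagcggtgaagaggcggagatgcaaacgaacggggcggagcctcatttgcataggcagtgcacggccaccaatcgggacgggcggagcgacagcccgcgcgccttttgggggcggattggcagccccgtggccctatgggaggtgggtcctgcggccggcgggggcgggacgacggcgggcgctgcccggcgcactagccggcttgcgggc
Per1: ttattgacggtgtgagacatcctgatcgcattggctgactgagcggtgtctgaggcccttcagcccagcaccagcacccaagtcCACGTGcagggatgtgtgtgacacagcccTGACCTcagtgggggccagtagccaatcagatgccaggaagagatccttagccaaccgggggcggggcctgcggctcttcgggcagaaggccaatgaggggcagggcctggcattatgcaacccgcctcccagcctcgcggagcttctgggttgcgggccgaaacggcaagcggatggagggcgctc
Sgk1: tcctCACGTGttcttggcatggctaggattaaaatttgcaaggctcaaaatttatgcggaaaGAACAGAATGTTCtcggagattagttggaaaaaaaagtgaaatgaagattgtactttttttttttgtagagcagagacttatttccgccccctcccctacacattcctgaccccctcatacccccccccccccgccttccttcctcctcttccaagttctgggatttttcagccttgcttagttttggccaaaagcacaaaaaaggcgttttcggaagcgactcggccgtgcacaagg

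The Per3 window held 2 copies of TTATGTAA, the D-box to which Dbp and Tef bind, 205 and 158 bases before the start. A D-box was found in 2.32% of 32851 promoter windows of the same length over all genes. An E-box lay 138 bases before the Tef start and 169 bases before the Fkbp5 start. Others lay 166 bases before the Per1 start and 246 bases before the Sgk1 start. Of the 18 windows of these genes, shown or not, 5 held an E-box, where 7.15% of all windows held one. No window of Dbp, Nr1d1 or Tsc22d3 held any of the motifs searched. The window of Sgk1, 1 of 6 annotated for that gene, also held the only GRE match among the windows of these genes, GAACAGAATGTTC, 188 bases before the start, where 0.475% of all windows held one. An RRE core lay 137 bases before the Per1 start, windows of Nr1d2 and Sgk1 not shown held others, and 16.3% of all windows held one. No window of these genes held the CRE, found in 1.79% of all windows. A match is a description of letters in this window, and no match says nothing of a factor's action elsewhere.

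**Figure D1:**
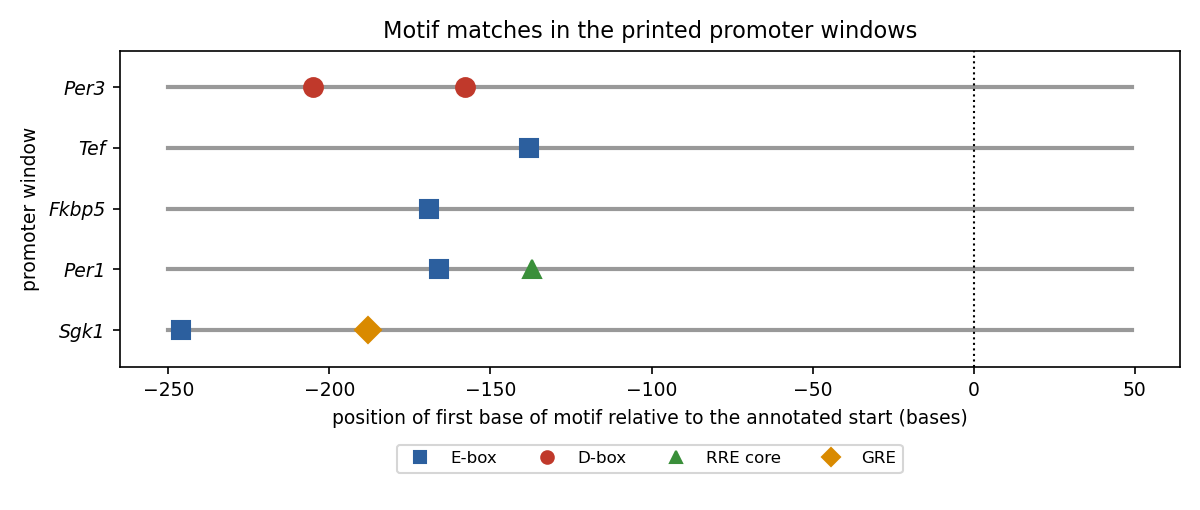
Motif matches in the 5 promoter windows printed in the text, each drawn as a grey line from 250 bases before to 50 bases after the annotated start (dotted line); the x axis gives the position of a motif's first base in bases. Per3 holds the 2 D-boxes, and Sgk1 holds the GRE.

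Counted reads per library ranged between 13863207 and 18512231, and each of the 10 genes had at least 142 reads in every library. Markers of basal keratinocytes, the cells at the base of the epidermis, were abundant in every ear, with 7 genes summing to between 14707 and 22754 CPM (counts scaled to library size) in inhibitor ears and between 13679 and 24788 CPM in vehicle ears. The mice are numbered 1 to 4 in each group, and same-numbered ears deviated together from their group means over all genes. The correlations of those deviations across genes were 0.397, 0.710, 0.673 and 0.682 for mice 1 to 4. Ears of unlike number also correlated within mice 1 and 2 (0.272 and 0.554) and within mice 3 and 4 (0.685 and 0.377). Every correlation across these sets was negative. The values thus part mice 1 and 2 from mice 3 and 4, and do not show that a number marks a matched pair. Among vehicle ears, the chi-square per degree of freedom between libraries was 30.6 for mice 1 and 2, 22.8 for mice 3 and 4, and 243 to 289 for pairs across these sets. Among inhibitor ears the sets were less distinct: it was 43.1 for mice 3 and 4 and 91.1 for mice 1 and 2, but 76.0 for mice 1 and 3. The labels do not say what a number shares, so its source was not tested. Levels are given in TPM, the authors' values scaled to gene length and library size, and fold changes and CPM come from the deposited counts.

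Between inhibitor and vehicle ears, none of the 10 genes passed the test. The quasi-likelihood test of edgeR, run on 15096 genes, called 0 of them (0%) at 0.05 after Benjamini-Hochberg adjustment, and every one of the 10 had an adjusted p of 0.999. DESeq2 and limma-voom also called 0 genes. At an unadjusted p under 0.05 edgeR had 142 genes, or 0.941%, of which 51 (0.338%) were higher and 91 (0.603%) lower with the inhibitor, and DESeq2 and limma-voom had 293 and 296. Of the 10 genes, 2 had such a p, Per1 (0.0365) and Sgk1 (0.0479), both lower with the inhibitor. In CPM, 0 of the 10 genes had groups that did not overlap, where 180 of all genes (1.19%) did, 0.735% higher and 0.457% lower. With the mouse number as a block 0 genes (0%) passed and 711 (4.71%) had an unadjusted p under 0.05, Per1 (0.0251) and Sgk1 (0.0403) among them. Estimates were higher for 6 and lower for 4 of the 10, with a median log2 fold change of 0.16, beside 8223 higher, 6873 lower and a median of 0.026 over all genes. The p-values rest on 4 mice a group.

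Among the clock repressors, Per1 had the lowest estimate. Per1 encodes a PERIOD protein that is induced both by the clock and rapidly by outside signals, glucocorticoids among them. It had 14.4, 34.7, 21.5 and 33.5 TPM in inhibitor mice 1 to 4, against 47.5, 62.2, 41.3 and 33.9 TPM in vehicle mice 1 to 4. In TPM the groups overlapped only in that inhibitor mouse 2 lay just above vehicle mouse 4. In CPM inhibitor mouse 2 (112.3) lay above both vehicle mouse 3 (110.4) and vehicle mouse 4 (91.7). In edgeR its log2 fold change was -1.02 (SE 0.41, adjusted p = 0.999). The difference in log2 CPM between same-numbered mice was -2.05, -1.13 and -0.90 for mice 1 to 3, and for mouse 4 it was -0.00012, so the last pair stood level. With the mouse number as a block the estimate was also -1.02 (SE 0.33, edgeR adjusted p = 0.721).

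Per2 and Per3, the other PERIOD genes, were the least abundant of the 10. Per2 had 10.5, 5.71, 6.90 and 8.07 TPM in inhibitor mice 1 to 4 and 5.57, 5.18, 8.27 and 6.17 TPM in vehicle mice 1 to 4. The groups overlapped, and inhibitor mouse 1 was the highest ear. Per3 had 7.28, 4.44, 11.5 and 8.94 TPM in inhibitor mice 1 to 4 and 3.02, 2.76, 11.2 and 8.10 TPM in vehicle mice 1 to 4. In TPM its highest ear in each group was that of mouse 3 and its lowest that of mouse 2. In CPM vehicle mouse 1 (12.7) lay below vehicle mouse 2 (13.6). The log2 fold changes were 0.17 (SE 0.18) for Per2 and 0.31 (SE 0.41) for Per3, within the spread between mice. Between same-numbered ears, inhibitor minus vehicle, Per3 differed by 0.99, 0.38, 0.075 and 0.16 in log2 CPM. With the block Per3 had 0.397 (SE 0.18, edgeR adjusted p = 0.721).

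Nr1d1 and Nr1d2 encode the haem-binding nuclear receptors that repress Arntl. Nr1d1 had 23.7, 18.1, 22.8 and 20.1 TPM in inhibitor mice 1 to 4, against 37.8, 40.3, 19.9 and 13.8 TPM in vehicle mice 1 to 4. The inhibitor ears lay close together, while vehicle mice 1 and 2 were above and vehicle mouse 4 below every inhibitor ear. The range in log2 CPM was 0.26 within the inhibitor group and 2.08 within the vehicle group. The log2 fold change of Nr1d1 was -0.65 (SE 0.43, edgeR adjusted p = 0.999), and among mice 3 and 4 alone it was 0.35. Nr1d1 overlaps Thra in the RefSeq annotation, Dbp overlaps Sphk2 and Per3 overlaps Uts2, and no strand marking is stated for the libraries, so these values may hold reads of the neighbour. Nr1d2 had 22.1, 18.7, 34.3 and 31.9 TPM in inhibitor mice 1 to 4 and 19.5, 17.9, 28.0 and 21.7 TPM in vehicle mice 1 to 4. Its groups overlapped and its log2 fold change was 0.16 (SE 0.18).

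The output factors Dbp and Tef are related leucine zipper proteins that carry clock time to D-box genes. Dbp had 14.4, 12.4, 57.1 and 48.5 TPM in inhibitor mice 1 to 4, against 7.95, 11.6, 41.6 and 35.6 TPM in vehicle mice 1 to 4. In both groups mice 3 and 4 stood far above mice 1 and 2, and the highest ear of all had 7.18 times the level of the lowest. Tef had 42.7, 26.1, 62.5 and 51.1 TPM in inhibitor mice 1 to 4 and 24.9, 21.3, 60.2 and 47.8 TPM in vehicle mice 1 to 4. In TPM Tef showed the same order of ears as Per3 in each group, with mouse 3 first and mouse 4 second. In CPM the lowest vehicle ear was that of mouse 2 for Tef (73.2) and of mouse 1 for Per3 (12.7). Between the treatments the log2 fold changes were 0.401 (SE 0.61) for Dbp and 0.15 (SE 0.29) for Tef, each smaller than the spread between mice. With the block they were 0.33 (SE 0.15) and 0.16 (SE 0.11), the adjusted p from edgeR being 0.721 for both.

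Of the glucocorticoid-induced genes, Tsc22d3 encodes GILZ, a leucine zipper protein that mediates part of the anti-inflammatory action of the hormone. It had 14.02, 29.2, 86.6 and 152.8 TPM in inhibitor mice 1 to 4 and 14.3, 11.2, 143.8 and 176.0 TPM in vehicle mice 1 to 4. Mice 3 and 4 were high and mice 1 and 2 low in both groups, and the highest ear had 15.7 times the level of the lowest, the widest span of the 10. Its range within a group was wider than that of 95.98% of tested genes among vehicle ears and 97.2% among inhibitor ears. The log2 fold change between treatments was -0.28 (SE 0.95, edgeR adjusted p = 0.999).

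Sgk1 encodes a serum- and glucocorticoid-induced kinase that regulates ion transport and cell survival, and is also induced by serum and cell stress. It had 90.3, 117, 70.02 and 77.2 TPM in inhibitor mice 1 to 4, against 262, 345, 85.1 and 86.5 TPM in vehicle mice 1 to 4. Vehicle mice 1 and 2 stood far above every other ear, and the remaining vehicle ears lay inside the range of the inhibitor ears. In edgeR this gave a log2 fold change of -1.40 (SE 0.601, adjusted p = 0.999). Between same-numbered ears the difference in log2 CPM was -1.85, -1.85, -0.25 and -0.14. The estimate was -1.85 in a fit to mice 1 and 2 only and -0.22 in a fit to mice 3 and 4 only. With the block it was -1.02 (SE 0.38, edgeR adjusted p = 0.721), without vehicle replicate 2 it was -0.85, and limma-voom with quality weights gave -0.32.

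Fkbp5 encodes a co-chaperone of the glucocorticoid receptor that lowers its hormone affinity. It had 42.4, 11.2, 44.3 and 29.4 TPM in inhibitor mice 1 to 4 and 9.72, 7.79, 40.4 and 43.3 TPM in vehicle mice 1 to 4. Mouse 1 was high with the inhibitor and low with vehicle, which sets Fkbp5 apart from Tsc22d3, low in both of those ears. In edgeR the estimate was 0.29 on the log2 scale (SE 0.55, adjusted p = 0.999). The same-numbered differences in log2 CPM were 1.80, 0.23, 0.17 and -0.54. The estimate was 1.24 in a fit to mice 1 and 2 only and -0.18 in a fit to mice 3 and 4 only.

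**Figure D2:**
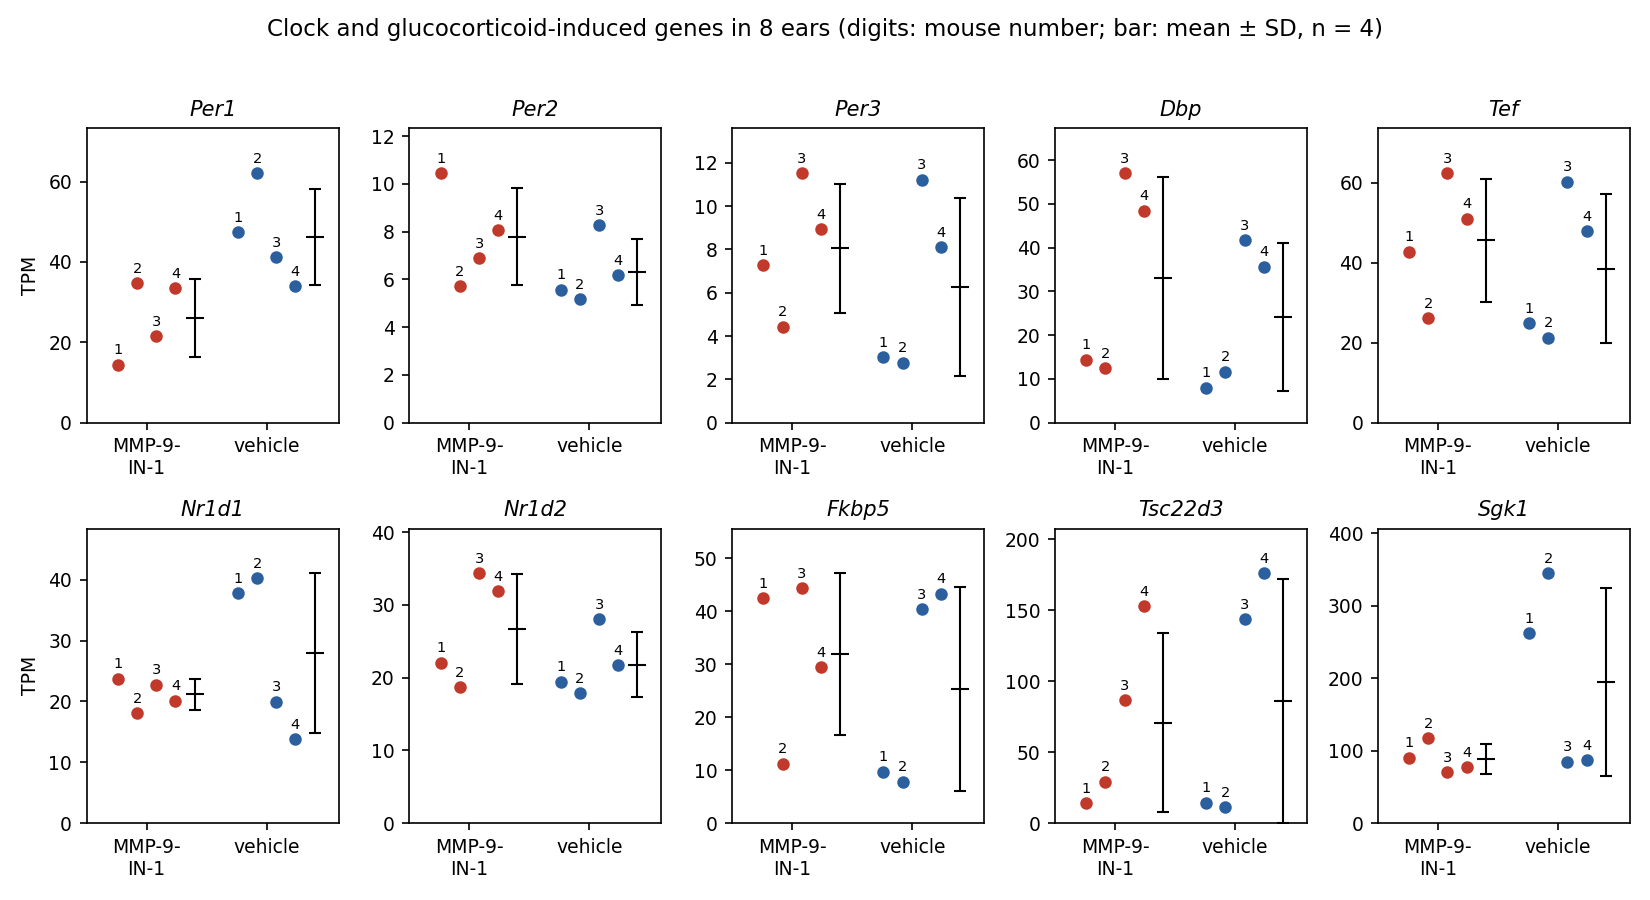
TPM of the 10 genes in each ear (y axis, from 0), with inhibitor ears in red on the left and vehicle ears in blue on the right, digits for the mouse number and bars for the mean ± SD of 4 ears. Dbp, Tsc22d3, Tef and Per3 are high in mice 3 and 4 of both groups, and Sgk1 is high in vehicle mice 1 and 2, at 262 and 345 TPM.

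**Figure D3:**
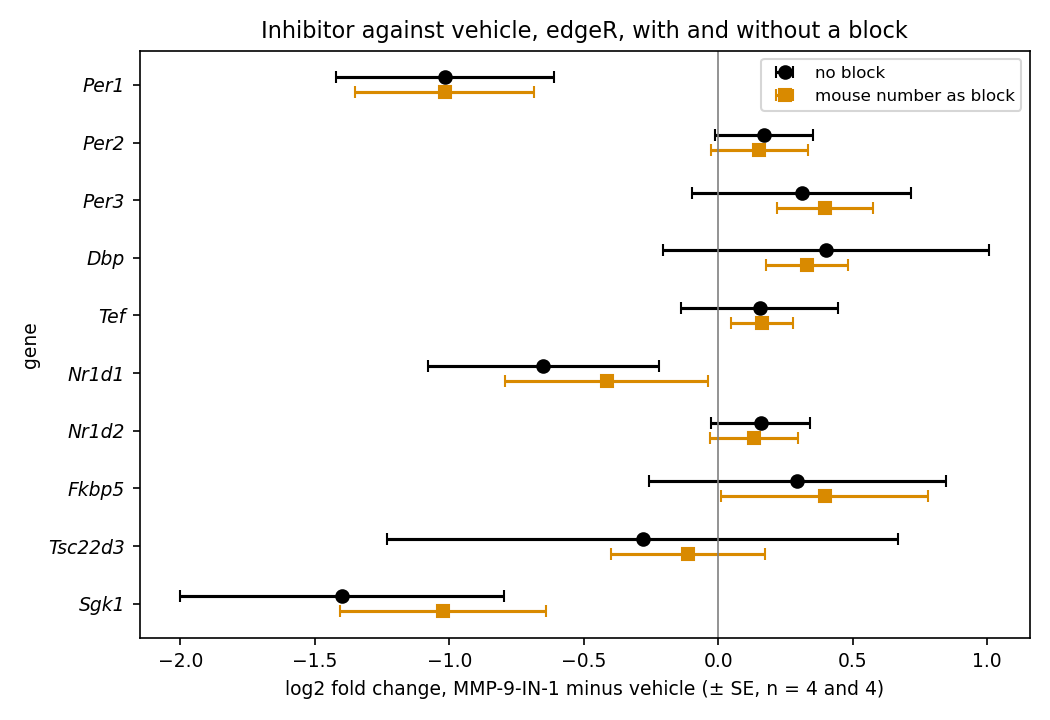
Log2 fold changes of MMP-9-IN-1 against vehicle (x axis, ± SE, 4 ears a group) from edgeR without a block (black) and with the mouse number as a block (orange). Per1 and Sgk1 lie lowest, and no gene passed the adjusted threshold in either fit.

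Per gene length, Sgk1 was the most abundant of the 10, with a mean of 141.6 TPM over the 8 ears. It was followed by Tsc22d3 (78.5), Tef (42.1), Per1 (36.1), Dbp (28.6), Fkbp5 (28.6), Nr1d1 (24.6), Nr1d2 (24.3), Per3 (7.16) and Per2 (7.04 TPM). Only the step from Nr1d2 to Per3 exceeded the spread between ears, since Nr1d2 never fell below 17.9 TPM and Per3 never exceeded 11.5 TPM. The other neighbours overlapped. Between single ears the order changed: the ratio of Tsc22d3 to Sgk1 in TPM was 0.155, 0.249, 1.24 and 1.98 in inhibitor mice 1 to 4, against 0.0545, 0.0325, 1.69 and 2.03 in vehicle mice 1 to 4. Tsc22d3 thus lay below Sgk1 in mice 1 and 2 of both groups and above it in mice 3 and 4 of both groups.

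The levels shared by same-numbered mice were tested in 1 model with treatment and mouse number, by edgeR's quasi-likelihood test of the 3 number terms. This test was chosen with earlier results of these data known. Of all 15096 genes, 1110 (7.35%) passed an adjusted p of 0.05, and of the 10 genes 2 did, Dbp (adjusted p = 0.0281) and Tsc22d3 (adjusted p = 0.0340). Tef (adjusted p = 0.0521) and Per3 (adjusted p = 0.0648) lay just outside the threshold in edgeR, and Sgk1 (0.148), Fkbp5 (0.187), Per1 (0.320), Nr1d1 (0.378), Nr1d2 (0.498) and Per2 (0.687) further out. Both calls were lost without mouse 3 (adjusted p = 0.0756 for Dbp and 0.0681 for Tsc22d3) and without mouse 4 (0.110 and 0.137). Over all genes the count was 299 without mouse 2, 0 without mouse 3 and 0 without mouse 4, where edgeR still had 3896 and 3312 genes at an unadjusted p under 0.05. Limma-voom was not run on those subsets. In CPM, Dbp, Per3, Tef and Tsc22d3 were higher, and Sgk1 lower, in each of the 4 ears of mice 3 and 4 than in any ear of mice 1 and 2. Of all genes 38.0% parted in this way, 19.5% higher and 18.4% lower, so that 5 of 10 genes is a share near the background.

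**Figure D4:**
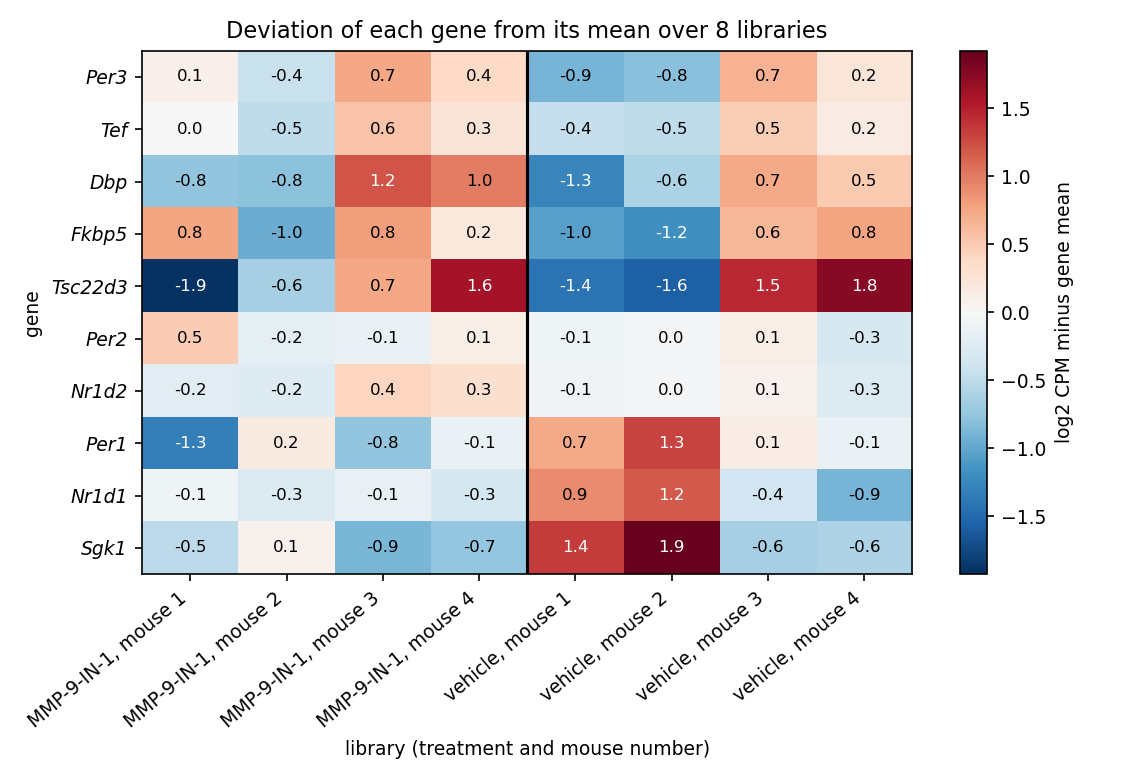
Deviation of each gene (rows) from its own mean over the 8 libraries in log2 CPM (colour and printed value), with the 4 inhibitor ears left of the black line and the 4 vehicle ears right of it. Dbp and Tsc22d3 are above their means in mice 3 and 4 of both groups and below them in mice 1 and 2, while Sgk1 is highest in vehicle mice 1 and 2.

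Likeness between the 10 genes was measured as the root mean square difference of their centred log2 CPM profiles over the 8 libraries. The closest pair was Per3 and Tef, at 0.23. Among all tested genes 58 lay closer to Per3 than Tef did and 373 lay closer to Tef than Per3 did, so the pair is not the nearest of all. Within the 10, Fkbp5 was closest to Per3 (0.39) and Dbp also to Per3 (0.46). Sgk1 was closest to Nr1d1 (0.49) and Tsc22d3 to Dbp (0.79). Over all tested genes, 31 lay closer to Fkbp5 than Per3 did, and 316 lay closer to Dbp. For Sgk1, 388 lay closer than Nr1d1, and for Tsc22d3, 725 lay closer than Dbp. Outside the 10, the genes most like Dbp were Ppargc1a (0.247), a coactivator of oxidative metabolism, Scn2a (0.26), a sodium channel gene, Fgf1 (0.28), a growth factor gene, Aldh1a1 (0.28), a retinoic acid synthesis enzyme, and Zfp641 (0.29), a zinc finger gene. Ppargc1a had 0.38, 0.16, 1.41 and 1.17 TPM in inhibitor mice 1 to 4 and 0.13, 0.22, 0.99 and 0.78 TPM in vehicle mice 1 to 4. Scn2a was near the floor, at 0.03 to 0.27 TPM in inhibitor ears and 0.01 to 0.15 TPM in vehicle ears. The genes most like Fkbp5 were Prob1 (0.26), Lhpp (0.31), Fgf18 (0.32), Zfr2 (0.32) and Pdk2 (0.32). Lhpp had 88.3, 40.8, 78.7 and 57.7 TPM in inhibitor mice 1 to 4 and 20.2, 17.1, 83.1 and 77.8 TPM in vehicle mice 1 to 4.

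None of the 7 core clock activators passed the test between treatments, with 3 higher, 4 lower and a median log2 fold change of -0.021. Arntl, the partner of Clock and a target of repression by Nr1d1, had 8.72, 10.1, 7.05 and 6.94 TPM in inhibitor mice 1 to 4 and 13.1, 14.04, 9.42 and 10.2 TPM in vehicle mice 1 to 4. Inhibitor mouse 2 lay above vehicle mouse 3, and no other inhibitor ear reached a vehicle ear; its estimate in edgeR was -0.67 on the log2 scale (SE 0.297, adjusted p = 0.999). Within each group the ears of mice 1 and 2 were above those of mice 3 and 4, the opposite order to Dbp. The ratio of Dbp to Arntl in TPM was 1.65, 1.23, 8.09 and 6.98 in inhibitor mice 1 to 4, against 0.606, 0.826, 4.42 and 3.503 in vehicle mice 1 to 4. For each mouse number the ratio was higher in the inhibitor ear, as was that of Per3 to Arntl. The ratio of Nr1d1 to Arntl did not keep to this. It was 2.72, 1.79, 3.23 and 2.90 in inhibitor mice 1 to 4, against 2.88, 2.87, 2.12 and 1.36 in vehicle mice 1 to 4. No test was made of these ratios.

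Clock itself ranged from 11.1 to 15.8 TPM in inhibitor ears and from 10.3 to 12.6 TPM in vehicle ears, a narrow span. Npas2, which can replace Clock, differed by -0.80 on the log2 scale (SE 0.47), and Arntl2, a relative of Arntl, by 0.36 (SE 0.401). The nuclear receptors Rora and Rorb, which can activate Arntl through the RRE, had 0.059 (SE 0.26) and -0.24 (SE 0.35).

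Of the 7 other clock repressors, 0 passed between treatments, with 2 higher, 5 lower and a median log2 fold change of -0.304. Ciart, a clock-bound repressor, had 10.1, 6.03, 8.70 and 7.76 TPM in inhibitor mice 1 to 4 and 12.2, 14.2, 12.3 and 8.27 TPM in vehicle mice 1 to 4, with a log2 fold change of -0.701 (SE 0.29, unadjusted p = 0.0413 and adjusted p = 0.999 in edgeR). Nfil3, which competes with Dbp and Tef at D-boxes, had 19.3, 58.8, 15.3 and 27.1 TPM in inhibitor mice 1 to 4, against 71.03 and 93.95 TPM in vehicle mice 1 and 2 and at most 21.1 TPM in the other vehicle mice. Its high ears were those of mouse 2 with the inhibitor and of mice 1 and 2 with vehicle, where Dbp was low. In inhibitor mouse 1 Dbp was low too (14.4 TPM), but Nfil3 was not high there (19.3 TPM). The cryptochromes Cry1 and Cry2, partners of the PERIOD proteins, had -0.304 (SE 0.26) and -0.24 (SE 0.203). Bhlhe40 (-0.34, SE 0.45), Bhlhe41 (0.396, SE 0.29) and Timeless (0.22, SE 0.27) complete the list, and of the 7 only Bhlhe40, an E-box repressor, passed the test between mouse numbers in edgeR (adjusted p = 0.0496), beside 7.35% of all genes.

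Neither kinases and ubiquitin ligases of the clock nor other clock-controlled genes gave a call between treatments. Of 9 kinases, ligases and the deubiquitinase Usp2, 4 were higher and 5 lower, with a median log2 fold change of -0.013. The smallest p belonged to Csnk2a1 (0.18, SE 0.12), Csnk1d (-0.27, SE 0.18) and Fbxw11 (-0.22, SE 0.16). Of 13 tested output genes, Ciart among them, 3 were higher and 10 lower, with a median of -0.11. Coq10b, involved in coenzyme Q function, differed by -0.98 on the log2 scale (SE 0.63) and Nampt, the enzyme of NAD salvage, by -0.46 (SE 0.32).

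The glucocorticoid receptor and its partners also gave no call. Of 14 tested genes 7 were higher and 7 lower, with a median log2 fold change of 0.020. The receptor gene Nr3c1 had 21.7, 23.2, 30.3 and 34.8 TPM in inhibitor mice 1 to 4 and 15.95, 14.3, 28.5 and 29.9 TPM in vehicle mice 1 to 4. Mice 3 and 4 were above mice 1 and 2 in both groups, and the log2 fold change between treatments was 0.22 (SE 0.196). The mineralocorticoid receptor gene Nr3c2, at most 1.84 TPM in an inhibitor ear and 1.64 TPM in a vehicle ear, had 0.25 (SE 0.58). Hsd11b1, the enzyme that regenerates active hormone in the tissue, had 13.4, 39.3, 28.8 and 61.6 TPM in inhibitor mice 1 to 4 and 41.97, 36.3, 24.7 and 36.2 TPM in vehicle mice 1 to 4 (log2 fold change -0.14, SE 0.45).

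Among the chaperones of the receptor, Hsp90ab1 (-0.32, SE 0.17), Hsp90aa1 (-0.65, SE 0.55), Stip1 (-0.16, SE 0.205), Ptges3 (0.048, SE 0.22) and Fkbp4 (0.13, SE 0.16) all had an edgeR adjusted p of 0.999. The coregulators Ncoa1 (0.058, SE 0.12), Ncoa2 (-0.24, SE 0.16) and Ncor1 (0.12, SE 0.13) and the hormone exporter Abcb1a (-0.0082, SE 0.44) did not pass either. Cyp11a1, which starts steroid synthesis, had 2.43, 3.12, 8.99 and 11.5 TPM in inhibitor mice 1 to 4 and 2.57, 2.83, 8.24 and 9.11 TPM in vehicle mice 1 to 4. It was the 1 gene of the 14 that passed between mouse numbers (edgeR adjusted p = 0.0439), a share near the 7.35% of all genes, and its log2 fold change between treatments was 0.12 (SE 0.55). Cyp11b1, which makes corticosterone, was at 0 counts in some ears and was not tested.

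Other glucocorticoid-induced genes gave no call either. Of 41 tested, 17 were higher and 24 lower with the inhibitor, 0 passed, and the median log2 fold change was -0.22. Ddit4, an inhibitor of growth signalling, had 19.5, 48.1, 29.4 and 56.6 TPM in inhibitor mice 1 to 4 and 70.6, 85.1, 56.02 and 59.4 TPM in vehicle mice 1 to 4 (log2 fold change -1.002, SE 0.401, edgeR adjusted p = 0.999). Cd163, a haemoglobin scavenger receptor of macrophages, had 0.85 (SE 0.42) and Zfp36, which destabilises cytokine transcripts, -1.47 (SE 0.77). Between mouse numbers 6 of the 41 passed in edgeR, beside 7.35% of all genes: Sult1a1, Glul, Fam107a, Ccn2, Klf15 and Zbtb16, which were named after their values were seen. Zbtb16, a zinc finger repressor, had 1.70, 0.72, 4.65 and 3.17 TPM in inhibitor mice 1 to 4 and 0.97, 0.67, 4.94 and 6.30 TPM in vehicle mice 1 to 4. Of the 41 genes, 13 were higher and 10 lower in every ear of mice 3 and 4 than in any ear of mice 1 and 2, beside 38.0% of all genes in either direction.

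**Figure D5:**
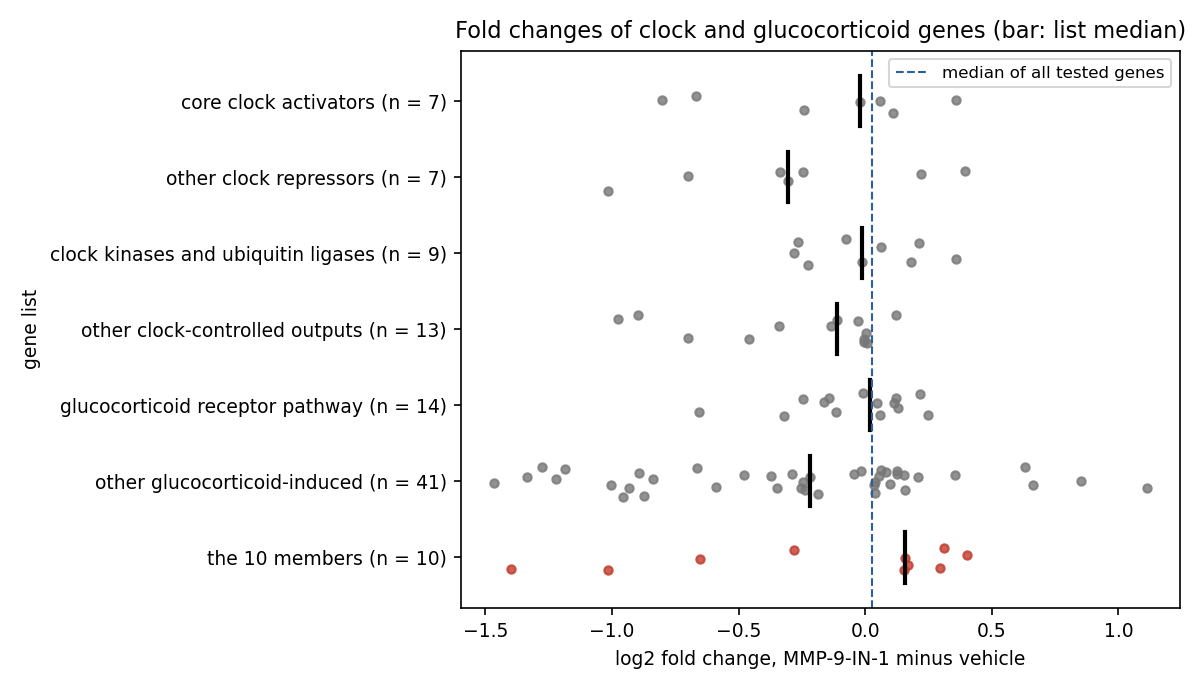
Log2 fold changes of MMP-9-IN-1 against vehicle (x axis) for each tested gene of 6 lists (grey) and for the 10 genes described here (red), with a black bar at each list's median. The dashed blue line marks the median of all tested genes, 0.026, and 0 of these genes passed the adjusted threshold.

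Markers of other cells moved with some of these values. All 8 tested T and NK cell markers were higher in every ear of mice 3 and 4 than in any ear of mice 1 and 2, as Tsc22d3 was, beside 19.5% of all genes. Their summed level was 15.4 to 199.6 CPM in inhibitor ears and 11.2 to 220.8 CPM in vehicle ears; by number it was 103 to 221 CPM in mice 3 and 4 and 11.2 to 33.9 CPM in mice 1 and 2. No marker was at 0 in any library, and their part in the Tsc22d3 levels was not tested. In such whole-ear samples, fewer cells of a type and less RNA per cell cannot be told apart.

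All 9 neutrophil markers had lower estimates with the inhibitor and 0 passed. Their summed level, with no marker at 0, was 931, 7284, 804 and 1084 CPM in inhibitor mice 1 to 4 and 10551, 13682, 1046 and 959 CPM in vehicle mice 1 to 4. Its highest ears were vehicle mice 1 and 2, as for Sgk1, and inhibitor mouse 2 came next both in this sum and in Sgk1 (117 TPM). The summed level of 10 immediate early genes, which report acute stimulation, was likewise highest in vehicle mice 1 and 2, at 701, 2081, 586 and 707 CPM in inhibitor mice 1 to 4 and 3385, 5064, 452 and 588 CPM in vehicle mice 1 to 4. The summed level of 7 inducible heat shock genes, none at 0, was 816, 761, 739 and 586 CPM in inhibitor mice 1 to 4 and 1401, 2033, 679 and 601 CPM in vehicle mice 1 to 4. The heat shock sum was highest in vehicle mice 1 and 2, as Sgk1 was, and inhibitor mouse 1 came next. Of these 7 genes 0 passed. In edgeR 2 had an unadjusted p under 0.05, both lower with the inhibitor, where 0.603% of all genes were lower with such a p. Inflammatory genes known to be repressed by glucocorticoids, 20 in the list with Il13 at 0 in inhibitor mouse 1, summed to between 557 and 11443 CPM in inhibitor ears and between 455 and 32162 CPM in vehicle ears, with 3 higher, 16 lower and 0 past the test of 19 tested.

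All 12 skeletal muscle markers had higher estimates with the inhibitor and 0 passed. With none at 0, they summed to 2822, 425, 3371 and 3893 CPM in inhibitor mice 1 to 4 and 1186, 402, 1427 and 1822 CPM in vehicle mice 1 to 4. Inhibitor mouse 1 stood high and inhibitor mouse 2 low in this sum, as in Fkbp5, but other ears differed. Inhibitor mouse 4 had the highest sum, yet less Fkbp5 (29.4 TPM) than inhibitor mice 1 and 3 (42.4 and 44.3 TPM). Vehicle mouse 1 was near vehicle mouse 3 in the sum, but far below it in Fkbp5 (9.72 against 40.4 TPM). The 8 sebaceous gland markers summed to 7171, 5216, 6902 and 5225 CPM in inhibitor mice 1 to 4 and 1547, 1834, 7627 and 6490 CPM in vehicle mice 1 to 4. The 9 markers of differentiated keratinocytes summed to between 1829 and 2941 CPM in mice 3 and 4 and between 351 and 960 CPM in mice 1 and 2, parting as Dbp, Tef and Per3 did, although only 5 of the 9 parted gene by gene, beside 19.5% of all genes. The sum of 10 adipocyte markers parted too, at 403 to 859 CPM in mice 3 and 4 and 137 to 322 CPM in mice 1 and 2, with 7 of 10 genes higher in each ear of mice 3 and 4. The sum of 7 fibroblast markers was 3971 to 9206 CPM in mice 3 and 4 and 2074 to 3522 CPM in mice 1 and 2, with 3 of 7 genes parted in this way. None of these markers was at 0. The part of these cells in the levels of Fkbp5, Dbp, Tef, Per3 and Sgk1 was not tested.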

How the data were processed

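RNA was measured in the left ears of 8 mice, grouped by their titles; the titles number separate mice. Per the labels' protocols, oligo(dT) selected the polyadenylated RNA, which was read as single ends of 50 bases on a DNBSEQ instrument. The submitters' processing notes name HISAT and build GRCm39; no source used here gives the counting tool or annotation. The authors deposited expected counts (33.7% to 35.3% of values not whole within 1e-09), TPM and FPKM; the deposited FPKM values and 6 columns of group means were not used, and deposited TPM gave levels and an alternative. Counts were rounded, filtered with filterByExpr, scaled by TMM (factors 0.815 to 1.08) and tested with edgeR 4.0.16 in R 4.3.3, quasi-likelihood, without a block, with Benjamini-Hochberg adjustment over 15096 genes; limma 3.58.1 and DESeq2 1.42.0 served alternatives. Log2 CPM used a prior count of 2. Same-group libraries differed by more than sampling noise (chi-square per degree of freedom 22.8 to 289). The labels do not pair the samples. Same-numbered ears were set side by side because their deviations correlated (all over 0.1). Unlike numbers within mice 1 and 2 or within mice 3 and 4 passed that bar too, so it cannot establish pairs.

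The 10 genes and the lists were chosen with earlier results of these data known. Named genes were the 10, every tested core clock activator, other clock repressor and receptor pathway gene, up to 3 of each other list by smallest p, and the 5 genes most like Dbp and Fkbp5; exceptions are marked. Some genes of these lists are counted but not reported here by name. The alternatives tried were the full DESeq2 test, its size factors alone, scaling by total counts, a minimum of 1 CPM in every library or no filter, limma-voom (weighted by sample quality), limma-trend on log2(TPM + 1) and log2(TPM + 0.1) for genes with at least 1 TPM in 4 libraries, the block, each replicate left out, mice 1 and 2 or 3 and 4 only, a threshold of 0.1 and a prior count of 0.5. The test between mouse numbers was also run with limma-voom without weights and with no group term. The fit was tested on simulated data. Between treatments it recovered 0% of 1.5-fold, 10% of 2-fold, 60% of 4-fold and 98% of 8-fold changes, with 3 false calls. Most 2-fold changes between treatments were thus missed. Between mouse numbers it recovered 6%, 32%, 90% and 100% of these changes, with 3 false calls.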

Additional observations from a re-analysis of the deposited data

Results flagged for a closer look

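Of 126 groups of 4 ears, for 63 named genes, 3 held 1 ear far from the other 3 (a gap over 0.829 of the group's range in log2 CPM), and chance gives about 1 in 20 groups. Npas2 had 1.78 TPM in inhibitor mouse 2, where the other inhibitor ears had 0.92 to 1.05 TPM. Csnk2a1, a kinase of the clock, had 48.9 TPM in inhibitor mouse 1, where the others had 34.9 to 41.2 TPM. Zfr2 had 0.60 TPM in inhibitor mouse 2, where the others had 1.29 to 1.48 TPM. None of the 10 clock output and glucocorticoid-induced genes met this criterion.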

How the results depend on the processing

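In all 20 alternatives, 0 genes passed between treatments and none of the 10 genes passed. Per1, Per2, Per3, Dbp and Sgk1 kept the sign of their estimate in each of the 20, though not its size. With limma-voom and quality weights the estimate of Nr1d1 was 0.22 and that of Fkbp5 -0.082. TPM with a pseudocount of 1 or 0.1 gave Tsc22d3 0.089 and 0.104; these settings moved the median of all genes by 0.12 and 0.14, relative to which Tsc22d3 lay at -0.057 and -0.062. Among mice 1 and 2 only, Nr1d2 had -0.19 and Tsc22d3 0.37; among mice 3 and 4 only, Nr1d1 had 0.35 and Fkbp5 -0.18. The cause was not tested. With 1 library left out, estimates ran from -0.019 to 0.37 for Tef and from -0.98 to 0.29 for Tsc22d3. They ran from -1.30 to -0.71 for Per1, 0.013 (without inhibitor mouse 1) to 0.24 for Per2, 0.094 (without vehicle mouse 1) to 0.67 (without vehicle mouse 3) for Per3, and 0.020 (without inhibitor mouse 3) to 0.73 (without vehicle mouse 3) for Dbp. They ran from -0.91 to -0.31 (without vehicle mouse 2) for Nr1d1, 0.035 (without inhibitor mouse 3) to 0.25 for Nr1d2, 0.027 (without vehicle mouse 2) to 0.63 (without vehicle mouse 4) for Fkbp5, and -1.68 to -0.85 (without vehicle mouse 2) for Sgk1.

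The replicate block, with the mouse number as a factor, called 0 genes, with 711 at an unadjusted p under 0.05, and changed no call. Between mouse numbers the count was 599 for genes with at least 1 CPM in every library (fewer genes tested), and ran from 0 to 1414 with 1 number left out. Dbp and Tsc22d3 passed in every alternative except without mouse 3 or 4. Tef also passed with total counts, limma-voom, no group term and without mouse 1. Without mouse 1, Per3 (edgeR adjusted p = 0.0312) and Fkbp5 (edgeR adjusted p = 0.0368) passed too. With CPM in place of TPM, without length scaling, Per1, Dbp, Nr1d2 and Tsc22d3 changed their rank of level. Of the 5 genes most like each, 4 for Dbp and 5 for Fkbp5 were the same with a prior count of 0.5. Scn2a was the gene lost for Dbp.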

Other observations

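Mt1, a metallothionein gene induced by metals and glucocorticoids, was highest in inhibitor mouse 1, and was named after its values were seen. It had 8429, 3249, 2579 and 2067 TPM in inhibitor mice 1 to 4 and 3808, 3572, 2925 and 2522 TPM in vehicle mice 1 to 4. Inhibitor mouse 1 was also the highest ear for Arntl2, at 29.3 TPM against 7.97 to 12.7 TPM in the other inhibitor ears, and had the lowest Per1 level of all 8 ears.

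Sult1a1, a sulfotransferase gene induced by glucocorticoids in rodents, had the smallest p between mouse numbers of the glucocorticoid-induced genes (edgeR adjusted p = 0.0255). It had 0.94, 3.5, 30.5 and 36.3 TPM in inhibitor mice 1 to 4 and 0.94, 1.14, 31.2 and 34.3 TPM in vehicle mice 1 to 4. Glul, the glutamine synthetase gene, had 48.7, 72.4, 158.8 and 201.8 TPM in inhibitor mice 1 to 4 and 54.03, 47.3, 150.4 and 180.4 TPM in vehicle mice 1 to 4. Klf15, a transcription factor induced by glucocorticoids, had 2.57, 2.90, 8.23 and 12.2 TPM in inhibitor mice 1 to 4 and 1.49, 0.90, 10.1 and 12.2 TPM in vehicle mice 1 to 4. All 3 genes were named after their values were seen.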
